A study of Homo sapiens with 6 samples.

Results

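The response described here is the set of genes that moved the same way when MEX3A was depleted in 2 unrelated ovarian tumour lines. Each of the 4 libraries carrying a MEX3A hairpin was compared with the scramble library of its own line, which gives 4 differences per gene, and a gene belongs to the set when all 4 have the same sign. Of 39282 genes in the files, 11279 had at least 2 CPM (expected counts scaled to a common library size) in the mean of each line, and 3750 of these moved the same way in all 4 differences.

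The lines were PA-1, labelled an ovarian teratocarcinoma, and TOV21G, which derives from a clear cell carcinoma of the ovary. Every library, controls included, came from cells infected with lentivirus. The control virus carried the scramble hairpin (sh-Ctrl, TRC2-Scramble_ASN0003), and the others carried sh-MEX3A#1 (TRCN230492), called hairpin 1, or sh-MEX3A#2 (TRCN230494), called hairpin 2. Poly(A)-selected RNA was sequenced from 1 library per line and hairpin, so each line had 1 control and 2 depleted libraries, and a given hairpin was never repeated within a line. The design text speaks of each depleted population as a clone, and the time after infection is not given in the sources used here.

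MEX3A is an RNA-binding protein that carries a RING finger, the domain of many ubiquitin ligases, and the title of the series links it to the breakdown of p53. The transcription factor p53 is held low by MDM2. When p53 accumulates it switches on a group of genes that includes its own inhibitor MDM2 and the cell cycle inhibitor CDKN1A, and CDKN1A keeps the pocket proteins bound to E2F sites so that genes of replication and mitosis are repressed. Cells that stop dividing also often secrete matrix, protease and cytokine genes.

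Both lines were checked against marker genes. The 10 pluripotency markers summed to 4755, 4050 and 4520 CPM in the control, hairpin 1 and hairpin 2 libraries of PA-1, and to between 133 and 159 CPM in TOV21G. The 10 clear cell markers were less clear cut. They summed to 565, 1300 and 1343 CPM in PA-1 and to 7333, 2777 and 4935 CPM in TOV21G. SPP1 was the largest member in every library, at 167, 893 and 856 CPM in PA-1 and at 6074, 1611 and 3732 CPM in TOV21G. PAX8 was at 0.19 CPM or less in PA-1 and at 240 to 271 CPM in TOV21G, whereas GPC3, RBPMS and ARID3A were higher in the PA-1 control than in the TOV21G control, and HNF4A was under 1 CPM throughout. The source label of both lines is an ovarian surface epithelial cell. The 8 epithelial markers summed to between 272 and 409 CPM in PA-1 and between 159 and 267 CPM in TOV21G, almost all from the keratins KRT8 and KRT18, while EPCAM was at 0.0606 to 0.102 CPM in PA-1 and at 6.13 to 13.5 CPM in TOV21G. All 10 blood markers were under 1 CPM in every library. The 8 endothelial markers summed to 166, 153 and 269 CPM in PA-1 and to 0.39, 0.78 and 2.53 CPM in TOV21G. In PA-1 PECAM1 was at 74.6, 51.8 and 82.4 CPM and KDR at 47.0, 51.3 and 132 CPM, while ERG, EMCN and CLDN5 were under 1 CPM throughout. The 8 fibroblast markers summed to 212, 325 and 440 CPM in PA-1 and to 18, 113 and 202 CPM in TOV21G. LUM and COL3A1 were under 1 CPM throughout. COL1A1 was most of the sum with the hairpins in TOV21G (103 of 113 and 187 of 202 CPM), and in PA-1 THY1 and COL1A1 were its largest members, with THY1 at 262 CPM with hairpin 2. The fibroblast sum was higher with every hairpin, and its part in the matrix genes below was not tested. The libraries held 14654628 to 19495162 expected counts in total. A gene with no count could still have had up to 3, which is 0.153 to 0.200 CPM depending on the library.

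Of the genes tested, 1517 (13.4%) were higher in all 4 differences and 2233 (19.8%) were lower in all 4. At least 1.5-fold in all 4 were 89 higher genes (0.789%) and 31 lower genes (0.275%), and at least 2-fold were 22 higher and 2 lower genes. Among the genes with 1 sign in each line, 922 were higher with both hairpins in PA-1 and lower with both in TOV21G, and 743 showed the reverse. The effects were larger in TOV21G for 74.6% of the shared higher genes and for 86.3% of the shared lower genes, against 71.1% of all genes tested. The shared higher genes had median log2 differences of 0.23 and 0.30 in PA-1 and of 0.41 and 0.55 in TOV21G, for hairpins 1 and 2. The shared lower genes had medians of -0.19 and -0.22 in PA-1 and of -0.42 and -0.61 in TOV21G. The 2 differences within a line rest on a single control library, so 1 unusual control would move both, whereas differences of different lines share no library.

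The balance of higher and lower genes depended on how libraries were scaled. Higher genes made up 40.5% of the shared genes with TMM scaling and 40.3% with the size factors of DESeq2. Without a scaling factor they made up 51.4%, and in the deposited TPM 59.4% (2093 higher and 1433 lower). All 89 genes at least 1.5-fold higher stayed higher, and all 31 at least 1.5-fold lower stayed lower, under each of these scalings. Past 1.5-fold in the TPM were still 68 of the 89 and 14 of the 31. The TPM differences were taken on a log2 scale after a whole TPM unit was added to each value, which shrinks differences of low genes. The median TPM was 23.7 for the 89 higher genes and 12.7 for the 31 lower genes. The part of the added unit in these counts was not tested.

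**Figure D1:**
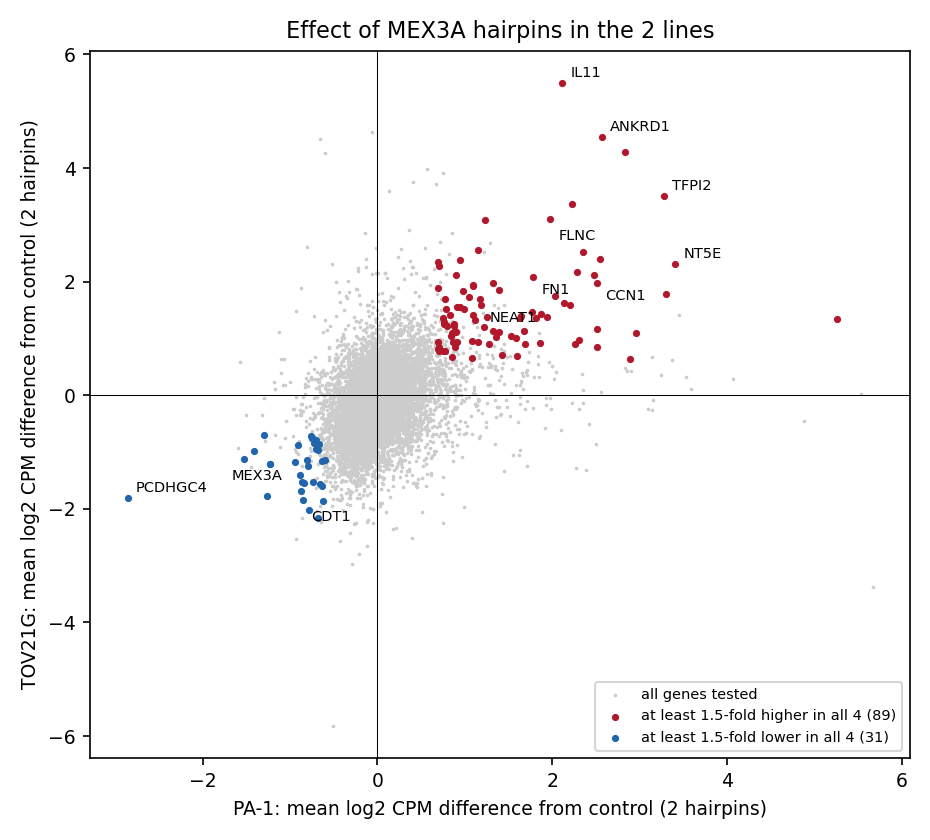
Mean log2 CPM difference from control over the 2 hairpins in PA-1 (horizontal axis) against TOV21G (vertical axis), 1 point per gene tested. Red points are the 89 genes at least 1.5-fold higher in all 4 differences and blue points the 31 at least 1.5-fold lower. The red points reach further from 0 than the blue ones.

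The same question was put in a form in which the differences of a single line chose the genes and those of the other did not. The level filter still used both lines, so a gene low in the other line's control could enter through its hairpin libraries. Of the shared higher genes, 113 of 1517 had a control under 2 CPM, against 0 of 2233 shared lower genes. The part of this in the higher shares below was not tested. Of 143 genes at least 2-fold higher with both hairpins in PA-1, 78 (54.5%) were higher with both hairpins in TOV21G, against 27.4% of all genes tested. Of 177 genes at least 2-fold higher in TOV21G, 119 (67.2%) were higher with both hairpins in PA-1, against 31.9% of all genes. The 302 genes at least 2-fold lower in TOV21G included 204 (67.5%) that were lower with both hairpins in PA-1, against 38.1% of all genes, and 2 (0.662%) that were 2-fold lower there, against 0.124% of all genes. PA-1 had 14 genes at least 2-fold lower, and 5 of them (35.7%) were lower with both hairpins in TOV21G, close to the 38.5% of all genes.

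Across the 11279 genes, the difference seen with hairpin 1 in PA-1 had a Pearson correlation of 0.27 with that of hairpin 1 in TOV21G, and hairpin 2 in both lines gave 0.39. Across different hairpins the values were 0.19 (PA-1 hairpin 1 with TOV21G hairpin 2) and 0.14 (PA-1 hairpin 2 with TOV21G hairpin 1). The hairpin 1 minus hairpin 2 difference, from which the controls drop out, correlated at 0.43 between the lines. These correlations are descriptions across genes, which are not independent replicates. The lines share no library but do share the hairpin reagents.

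The joint test, edgeR's quasi-likelihood test with cell line as a block, asked which genes differed between hairpin and control libraries beyond the spread left after the line means. That spread includes any difference in effect between the lines or between the hairpins. The joint test called 0 of 11279 genes (0.0%) at an adjusted p under 0.05. At an unadjusted p under 0.05 there were 407 higher and 555 lower genes, 962 in all, where the number of tests alone gives 564, and 940 of the 962 moved the same way in all 4. The lowest adjusted p was 0.583, and every one of the leading genes named next had that value in edgeR. The linear model limma voom also called 0 genes, with 890 at an unadjusted p under 0.05. DESeq2 called 74 higher and 14 lower genes, all of them the same way in all 4 differences, and 63 and 12 of them at least 1.5-fold. The tests and the signs rest on the same libraries, so the overlap of these genes with the same-way genes is no separate support. The text therefore says higher or lower of measured values. Calls that only DESeq2 made are given as counts per list, and by name for the leading genes and some list members. An edgeR test of whether the effect differed between the lines called 0 genes, with 472 at an unadjusted p under 0.05.

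MEX3A itself was lower in all 4 comparisons. Its level was 137 CPM in the PA-1 control against 41.2 and 55.1 CPM with hairpins 1 and 2, and 79.0 CPM in the TOV21G control against 39.7 and 32.8 CPM. Hairpin 1 thus left 30.0% of the control level in PA-1 and 50.3% in TOV21G, and hairpin 2 left 40.1% and 41.6%. The fitted log2 fold change was -1.32 (SE 0.20), and MEX3A was the third gene by its smallest difference among all genes lower in all 4. Its smallest difference, -0.99 with hairpin 1 in TOV21G, lay just outside 2-fold, and PRKCB lay just inside at -1.23.

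Secreted and matrix genes were among the leading higher genes. TFPI2, an inhibitor of plasmin and other serine proteases found in extracellular matrix, lies on chromosome 7 at 93885396 to 93890753 in the RefSeq annotation of hg38. It was at 3.34 CPM in the PA-1 control and at 20.2 and 55.5 CPM with the hairpins, and it went from 41.6 CPM to 514 and 439 CPM in TOV21G (log2 fold change 3.51, SE 0.46). TFPI2 is also one of the 10 clear cell markers summed above. FN1, which encodes the matrix protein fibronectin, was at 157 CPM against 590 and 495 CPM in PA-1 and at 1.38 CPM against 4.44 and 8.72 CPM in TOV21G. The lines held these genes at very different levels, with more FN1 in PA-1 and more TFPI2 in TOV21G.

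Other leading higher genes encode cell surface, cytoskeletal and signalling proteins. NT5E, the CD73 enzyme that makes adenosine outside the cell, was at 7.69 CPM against 36.6 and 187 CPM in PA-1 and at 114 CPM against 273 and 1178 CPM in TOV21G. Hairpin 2 gave the larger value in both lines. FLNC, filamin C, an actin crosslinker, was at 99.9 CPM against 348 and 446 CPM in PA-1 and at 17.0 CPM against 64.7 and 330 CPM in TOV21G. SERPINB9, an inhibitor of granzyme B, was at 14.8 CPM against 53.3 and 99.8 CPM in PA-1 and at 20.1 CPM against 66.7 and 125 CPM in TOV21G. For SERPINB9 the edgeR estimate for the difference between lines was -0.12 (SE 0.78, TOV21G minus PA-1), too imprecise to say that the lines matched. CELF2, an RNA-binding splicing regulator, had the smallest unadjusted p of the leading higher genes (0.00013), at 1.64 CPM against 5.33 and 5.41 CPM in PA-1 and at 47.2 CPM against 117 and 133 CPM in TOV21G. SPINT1, a membrane protease inhibitor of epithelia, was at 1.64 CPM against 5.88 and 9.85 CPM in PA-1 and at 4.72 CPM against 14.2 and 15.4 CPM in TOV21G.

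Some leading genes were barely present in a control. IL11, a cytokine of the IL-6 family, was at 1.26 CPM against 3.82 and 9.04 CPM in PA-1 and at 0.262 CPM against 4.71 and 62.8 CPM in TOV21G. ANKRD1, a nuclear cofactor and a common readout of YAP activity, was at 3.97 CPM against 27.3 and 21.4 CPM in PA-1 and at 0.328 CPM against 2.75 and 38.5 CPM in TOV21G. For both genes the TOV21G control lay near the 0.197 CPM that 3 counts give there, so the size of the TOV21G difference is poorly set. LOC100506178 was listed at 0 in the PA-1 control and at 2.97 and 7.05 CPM with the hairpins. Among the genes at least 2-fold higher in all 4, 11 of 22 had a control under 2 CPM in some line, and so had 29 of the 89 at 1.5-fold and 280 of all 11279. Such genes can pass the level filter through their hairpin libraries alone, whereas 0 of the 31 lower genes had such a control. ACTA2 lay just inside the 2-fold limit with a smallest difference of 1.03, and DUSP8 just outside at 0.999. The remaining leading higher genes were MARCHF4, INSYN2A, IL32 and PTPRB. MARCHF4 was at 0.197 CPM in the TOV21G control against 1.11 and 8.66 CPM with the hairpins, so its size there is also poorly set. INSYN2A was at 0.721 CPM in the TOV21G control, and IL32 was at 0.883 CPM in the PA-1 control. FN1, CELF2 and SPINT1, given above, also had a control under 2 CPM. DESeq2 called 11 of the 15 leading higher genes, and not ANKRD1, IL11, LOC100506178 or NT5E.

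The leading lower genes differed by less and were of more varied function. PCDHGC4, a clustered protocadherin of cell contacts, was at 4.92 CPM against 0.788 and 0.408 CPM in PA-1 and at 4.52 CPM against 0.980 and 1.46 CPM in TOV21G, and had the largest smallest difference of the lower genes. It overlaps other protocadherin gamma genes that share its last exons, so its counts depend on how reads were divided. PRKCB, the beta isoform of protein kinase C, was at 6.12 CPM against 2.55 and 2.40 CPM in PA-1 and at 19.1 CPM against 3.86 and 7.92 CPM in TOV21G. RBBP7, a histone chaperone subunit of several chromatin complexes, was at 106 CPM against 62.6 and 65.1 CPM in PA-1 and at 250 CPM against 93.6 and 79.3 CPM in TOV21G. RBMS1, an RNA-binding protein, was among the more even of the 15, with log2 differences between -0.69 and -0.89. It was at 230 CPM against 141 and 143 CPM in PA-1 and at 170 CPM against 105 and 91.4 CPM in TOV21G. TEF, a circadian transcription factor, was also even, at 14.4 CPM against 7.46 and 7.45 CPM in PA-1 and at 15.4 CPM against 6.99 and 6.59 CPM in TOV21G. MTPN and LUZP6, which are annotated on a shared transcript, had identical values in every library and count as 1 signal. BIVM-ERCC5 is a readthrough gene whose reads overlap its parent genes, and it is equally uncertain. The other lower leaders were CENPM, a centromere protein, EPOR, the erythropoietin receptor, and GMPR2, RPP25, CDT1 and PIK3C2B. DESeq2 called 8 of the 15 leading lower genes, MEX3A, PRKCB, RBBP7, RBMS1, TEF, CDT1, GMPR2 and PIK3C2B.

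**Figure D2:**
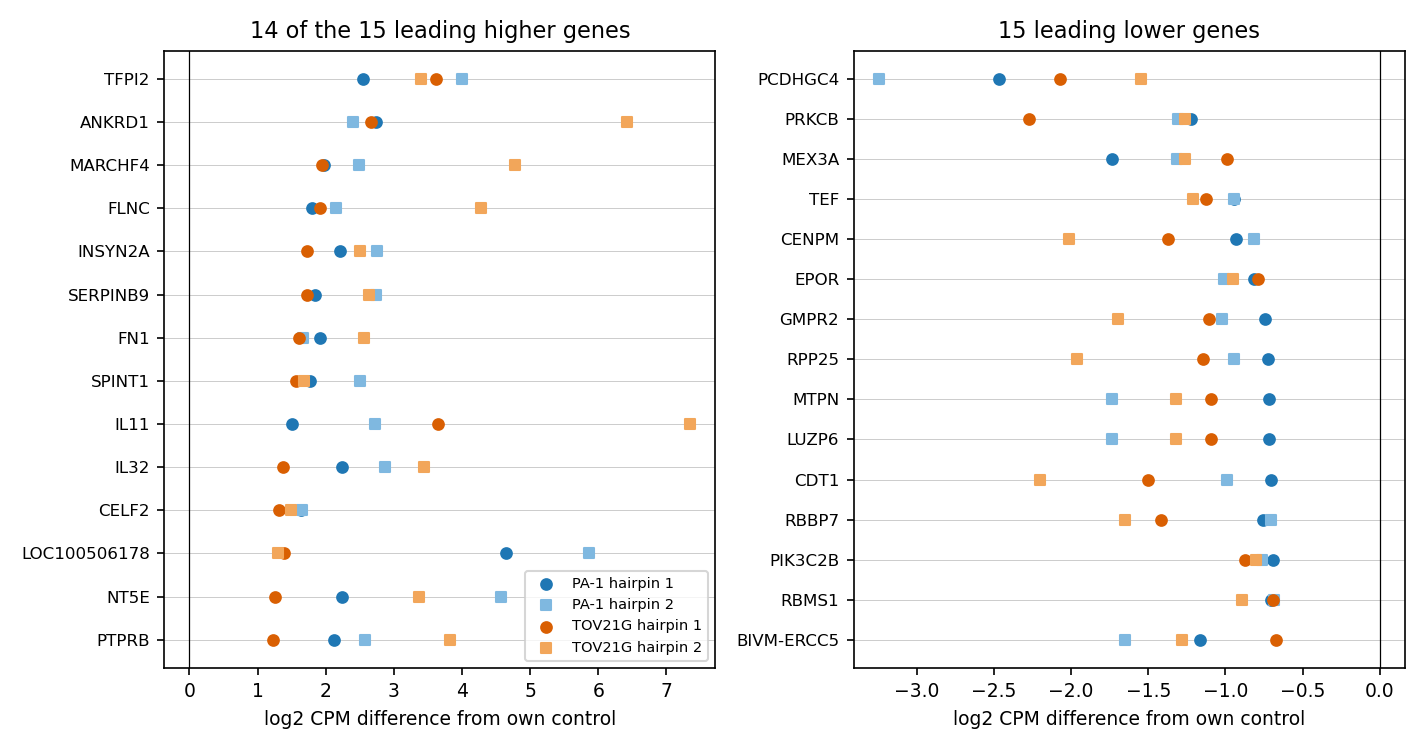
Log2 CPM difference of each hairpin library from its own control (horizontal axis) for 14 of the 15 leading higher genes (left) and the 15 leading lower genes (right), ordered by the smallest of the 4 differences. The higher genes reach 7.35 for IL11 with TOV21G hairpin 2, while among the lower genes PCDHGC4 has the largest smallest difference, -1.55 with TOV21G hairpin 2.

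Most tested targets of p53 were higher in all 4 differences. Of the 68 tested, 43 (63.2%) were higher in all 4 differences and 1 was lower, beside 13.4% and 19.8% of all genes tested, and 10 were at least 1.5-fold higher. The median fitted log2 fold change was 0.54, against -0.03 over all genes. With edgeR, 0 passed the adjusted threshold, and 30 were higher and 1 lower at an unadjusted p under 0.05. DESeq2 called 12, among them MDM2, BTG2, ACER2 and TP53INP1. It did not call CDKN1A (DESeq2 adjusted p = 0.075). The list was chosen with earlier results of these libraries known, so its count is a description.

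MDM2, which tags p53 for destruction and is itself switched on by p53, was at 164 CPM against 366 and 504 CPM in PA-1 and at 380 CPM against 1049 and 648 CPM in TOV21G. CDKN1A, the p21 inhibitor of cyclin-dependent kinases, was at 19 CPM against 35.3 and 106 CPM in PA-1 and at 699 CPM against 1093 and 2149 CPM in TOV21G. Both genes were higher in every comparison, and the order of the hairpins was the same in both lines for CDKN1A but not for MDM2. BTG2, an antiproliferative factor that recruits a deadenylase, was at 7.95 CPM against 24.3 and 35.1 CPM in PA-1 and at 81.9 CPM against 155 CPM with each hairpin in TOV21G. ACER2, an alkaline ceramidase of the Golgi, was at 16.6 CPM against 30.4 and 47.0 CPM in PA-1 and at 28.3 CPM against 94.3 and 89.0 CPM in TOV21G. TP53INP1, a stress protein of autophagy and cell death, was at 47.1 CPM against 84.1 and 89.1 CPM in PA-1 and at 126 CPM against 268 and 321 CPM in TOV21G. Of the BCL2 family, 4 of 13 members (30.8%) were higher in all 4, with 0 past the edgeR threshold, 2 higher and 1 lower at an unadjusted p under 0.05, and 0 called by DESeq2. The higher members included BAX and BBC3, which promote cell death, and MCL1, which opposes it. The survival gene BCL2 was lower, at 23.3 CPM against 16.9 and 14.3 CPM in PA-1 and at 34.4 CPM against 12.4 and 17.8 CPM in TOV21G.

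The genes of cell division gave the most uniform lists. Of 69 tested genes of the G2 and M phases, 60 (87.0%) were lower in all 4 and 0 were higher, and of 60 genes of G1/S and DNA replication, 46 (76.7%) were lower and 0 higher, beside 19.8% of all genes tested. Median log2 differences of the G2/M list were -0.21 and -0.25 in PA-1 and -1.12 and -1.32 in TOV21G, and those of the G1/S list were -0.16, -0.30, -0.85 and -1.39 in the same order. The direction was therefore shared while the size in PA-1 was small, and only 1 and 2 members of these lists were at least 1.5-fold lower in all 4. With edgeR 0 members passed, 56 and 27 were lower at an unadjusted p under 0.05, and DESeq2 called 0 and 2, the latter CDT1 and E2F8. Bulk RNA cannot tell fewer cells in a phase from less of the RNA per cell.

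CDT1, which loads the replicative helicase onto origins, was at 72.5 CPM against 44.4 and 36.4 CPM in PA-1 and at 24.1 CPM against 8.43 and 5.13 CPM in TOV21G. E2F1, a transcription factor of S phase entry, was at 30.0 CPM against 20.7 and 20.9 CPM in PA-1 and at 16.8 CPM against 5.95 and 4.99 CPM in TOV21G. E2F8, a repressor of the same family, was at 21.3 CPM against 13.8 and 13.6 CPM in PA-1 and at 20.3 CPM against 6.34 and 6.86 CPM in TOV21G. All hairpin libraries lay below their own control for these 3 genes. KIF20A, a kinesin of cytokinesis, was at 94.0 CPM against 65 and 62.5 CPM in PA-1 and at 54.5 CPM against 19.5 and 21.2 CPM in TOV21G. CDC25B, a phosphatase that starts mitosis, was at 89.7 CPM against 57.9 and 41.9 CPM in PA-1 and at 112 CPM against 63.0 and 24.2 CPM in TOV21G. CENPF, a kinetochore protein, was at 692 CPM against 530 and 458 CPM in PA-1 and at 340 CPM against 156 and 107 CPM in TOV21G. Genes of homologous recombination and Fanconi repair were lower in all 4 for 15 of 35 members (42.9%) and higher for 0. The count was 9 in the deposited TPM and 27 in the 3 differences left without PA-1 hairpin 1. In edgeR 0 members passed and 9 were lower at an unadjusted p under 0.05, and DESeq2 called 0. The PA-1 medians were 0.02 and -0.19 where TOV21G gave -0.72 and -1.20. BRCA1, for example, was at 85.4 CPM against 73.2 and 67.1 CPM in PA-1 and at 55.2 CPM against 22.9 and 22.0 CPM in TOV21G. The list of CDK inhibitors and D cyclins, which also holds RB family genes, showed no common direction, with 2 of 11 higher and 2 lower. The higher members were CDKN1A, given above, and RB1, and the lower ones were CDKN1B and RBL1. RB1 was at 94.5 CPM against 109 and 125 CPM in PA-1 and at 128 CPM against 153 and 185 CPM in TOV21G. The CDK inhibitor CDKN1B was at 88.1 CPM against 70.1 and 67.2 CPM in PA-1 and at 57.9 CPM against 40.9 and 51.7 CPM in TOV21G.

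**Figure D3:**
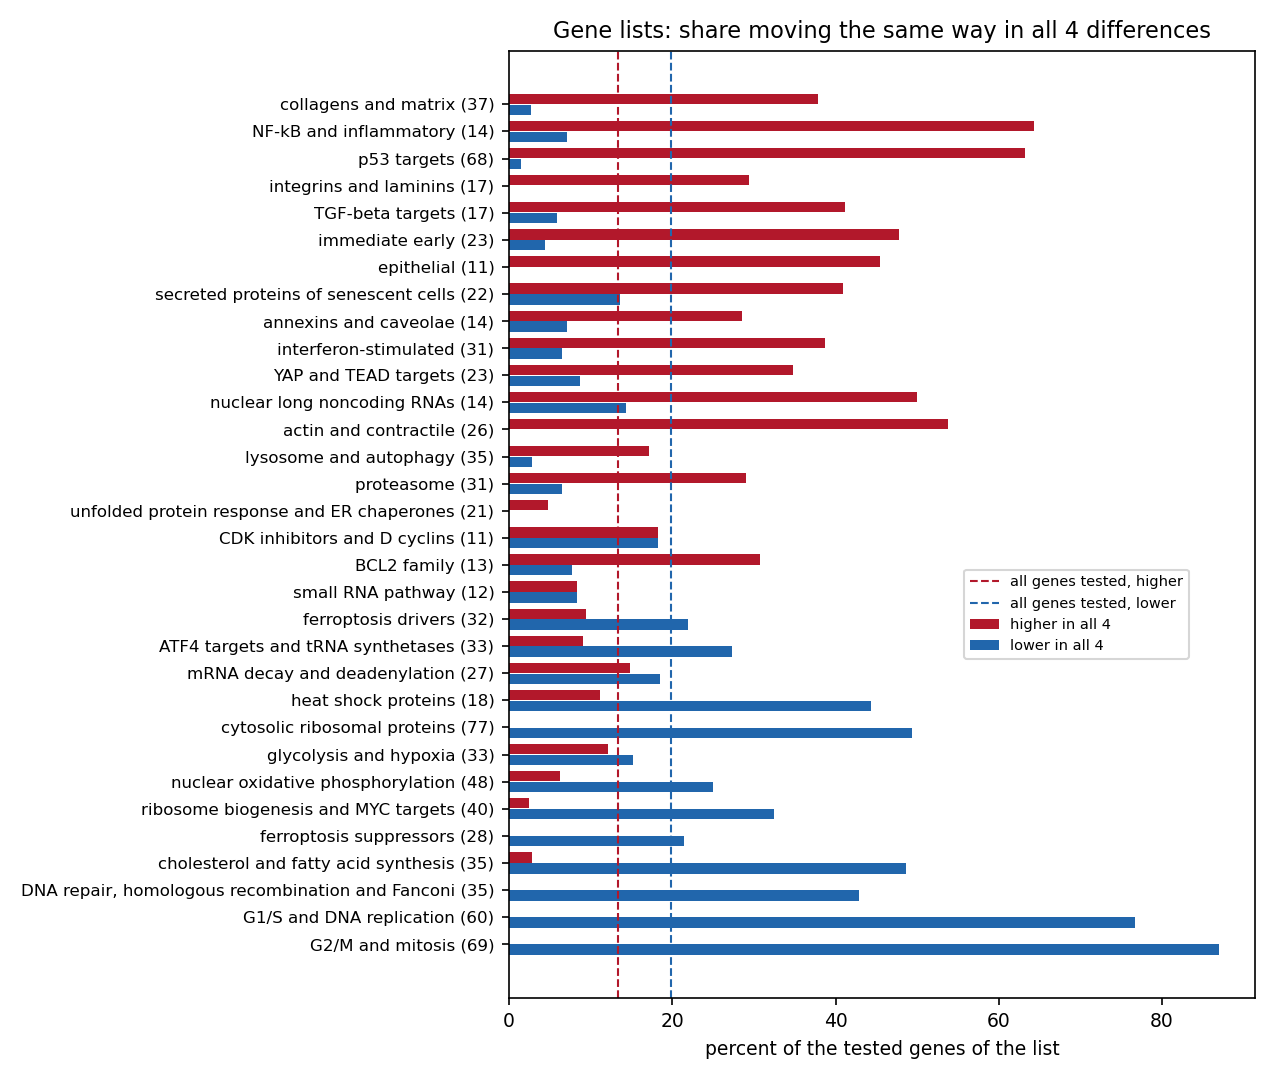
Percent of the tested members of each gene list with at least 10 tested genes that were higher (red) or lower (blue) in all 4 differences; dashed lines give the same percent over all genes tested, 13.4 and 19.8, and numbers of members are in parentheses. Lists are ordered by median fitted log2 fold change, from collagens and matrix at 0.82 to G2/M and mitosis at -0.73, and several lists share members.

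**Figure D4:**
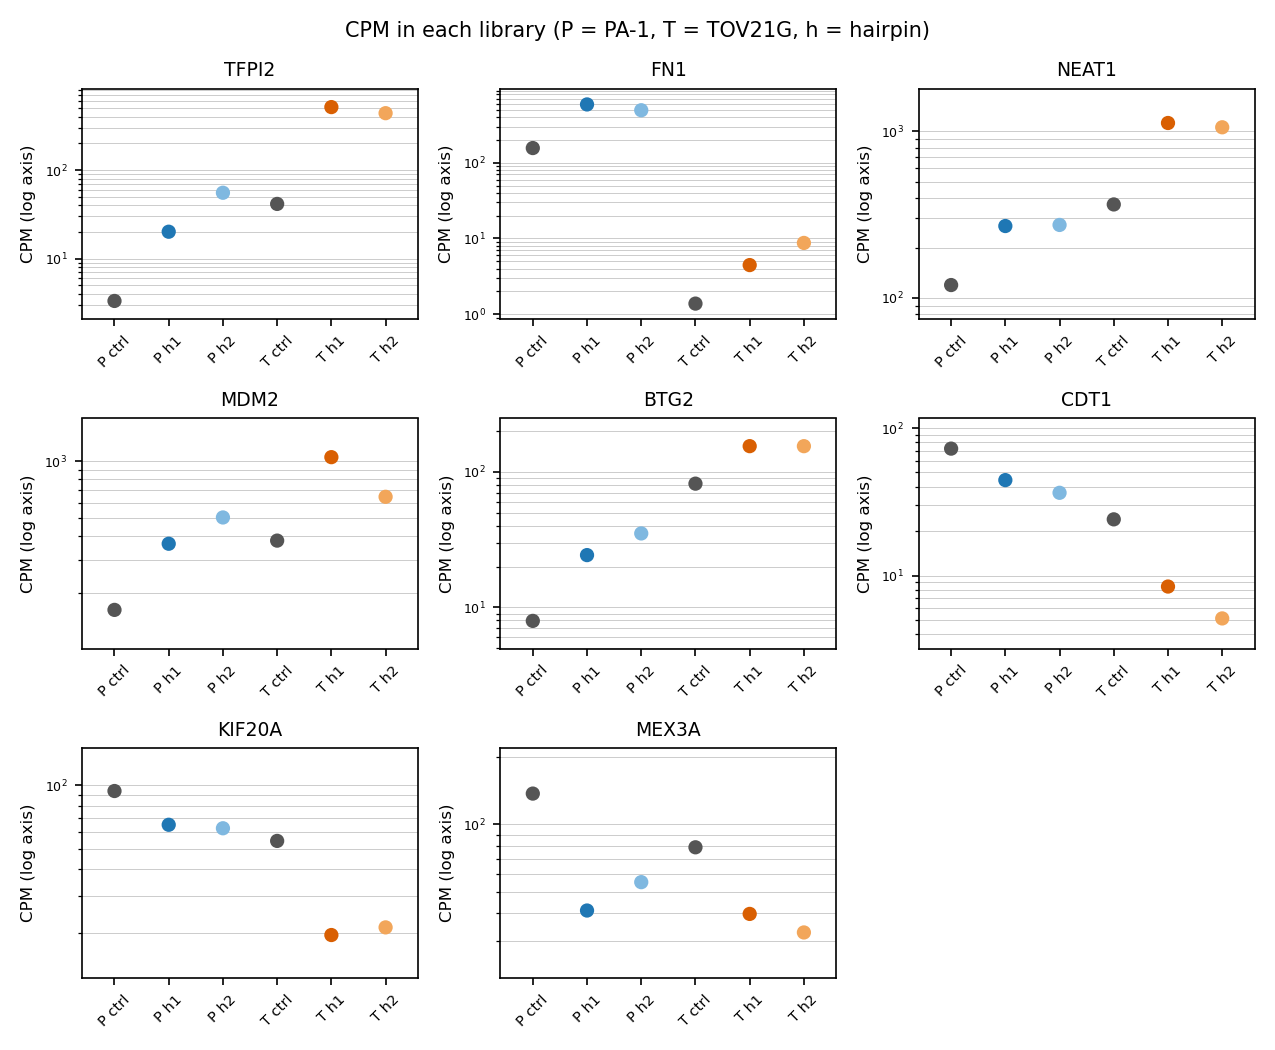
CPM (log axis) of 8 genes in the 6 libraries, with the PA-1 libraries (P) on the left and the TOV21G libraries (T) on the right of each panel, and controls in grey. TFPI2, FN1, NEAT1, MDM2 and BTG2 lie above their control with every hairpin, and CDT1, KIF20A and MEX3A below it.

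Among matrix and adhesion genes, a larger share was higher in all 4 than among all genes tested, with wide differences between members. Of 54 collagen and matrix genes listed, 37 reached the level filter. Of these, 14 (37.8%) were higher in all 4 and 1 was lower, and the median fitted log2 fold change was 0.82. The higher members COL1A2 and COL17A1 had a control under 2 CPM in PA-1, and FN1 in TOV21G. They passed the filter only through their hairpin libraries there, and the part of this in the share was not tested. COL4A2, a basement membrane collagen, was at 236 CPM against 369 and 428 CPM in PA-1 and at 368 CPM against 641 and 1407 CPM in TOV21G. COL1A2, a chain of fibrillar collagen, was at 0.82 CPM against 3.70 and 2.30 CPM in PA-1 and at 184 CPM against 366 and 323 CPM in TOV21G. Integrins and laminins had 5 of 17 members (29.4%) higher in all 4 and 0 lower, but the list median with hairpin 1 in TOV21G was -0.23, and without that library 9 were higher in the remaining 3 differences. ITGB1, the shared beta chain of many matrix receptors, was at 482 CPM against 713 and 724 CPM in PA-1 and at 2442 CPM against 3849 and 2912 CPM in TOV21G. With edgeR 0 members of either list passed. At an unadjusted p under 0.05, 11 and 2 were higher, and 1 and 0 lower. DESeq2 called 3 and 0, with COL1A2 and FN1 among the 3, and it did not call COL4A2.

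Targets of TGF-beta and of the YAP and TEAD factors, which respond to matrix tension, held 7 of 17 (41.2%) and 8 of 23 (34.8%) members higher in all 4, with 1 and 2 lower. PMEPA1, a membrane protein induced by TGF-beta, was at 2.77 CPM against 7.76 and 6.54 CPM in PA-1 and at 62.5 CPM against 326 and 187 CPM in TOV21G. CCN2, a matricellular protein in both lists, was at 47.4 CPM against 170 and 220 CPM in PA-1 and at 42.7 CPM against 80.0 and 257 CPM in TOV21G. CCN1, its relative, was at 29.2 CPM against 106 and 266 CPM in PA-1 and at 179 CPM against 326 and 1520 CPM in TOV21G. Hairpin 2 gave more CCN1 and CCN2 than hairpin 1 in both lines. Of 26 actin and contractile genes, 14 (53.8%) were higher in all 4 and 0 lower, with a median fitted log2 fold change of 0.25. ACTA2, smooth muscle actin, was at 11.5 CPM against 34.1 and 46.1 CPM in PA-1 and at 38 CPM against 142 and 77.7 CPM in TOV21G. The focal adhesion protein ZYX gave smaller and more even values, at 125 CPM against 177 and 175 CPM in PA-1 and at 105 CPM against 166 and 177 CPM in TOV21G. In edgeR 0 members of these lists passed, and DESeq2 called 3 of the TGF-beta targets, 3 of the YAP and TEAD targets and 2 of the actin genes. PMEPA1, CCN2, CCN1 and ACTA2 were among those called, and ZYX was not. At an unadjusted edgeR p under 0.05 were 5, 7 and 3 higher members and 0, 2 and 0 lower ones. Of the YAP and TEAD targets, 1 was at least 1.5-fold lower in all 4.

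Inflammatory, interferon, immediate early and senescence lists also held larger shares of higher genes than the 13.4% of all genes tested. NF-kB and inflammatory genes had 9 of 14 tested members (64.3%) higher in all 4 and 1 lower, but 31 genes were listed and the other 17 did not reach the level filter. Its higher members IL11, IL32 and TNFAIP2 had a control under 2 CPM in PA-1, and IL11 also in TOV21G. They passed the filter only through their hairpin libraries there, and the part of this in the share was not tested. TNFAIP2 was at 1.14 CPM against 2.30 and 4.49 CPM in PA-1. CSF1, a growth factor of macrophages, was at 8.39 CPM against 11.7 and 15.6 CPM in PA-1 and at 14.2 CPM against 36 and 66.1 CPM in TOV21G. Interferon-stimulated genes had 12 of 31 members (38.7%) higher and 2 lower, with a list median of 0.0063 with hairpin 2 in TOV21G. DDX58, which encodes the RNA sensor RIG-I, was at 17.6 CPM against 25.7 and 22.9 CPM in PA-1 and at 38.9 CPM against 67.1 and 65.5 CPM in TOV21G. Immediate early genes had 11 of 23 members (47.8%) higher and 1 lower. FOSL1, a subunit of the AP-1 factor, was at 13.1 CPM against 27.7 and 36.4 CPM in PA-1 and at 26 CPM against 42.0 and 55.9 CPM in TOV21G. DUSP1, a phosphatase that switches off MAP kinases, was at 4.10 CPM against 5.46 and 6.43 CPM in PA-1 and at 44.1 CPM against 133 and 255 CPM in TOV21G. Secreted genes of senescent cells had 9 of 22 members (40.9%) higher and 3 lower. PLAU, the urokinase protease that activates plasminogen, was at 51.1 CPM against 127 and 476 CPM in PA-1 and at 332 CPM against 658 and 578 CPM in TOV21G. Its receptor PLAUR was at 3.41 CPM against 5.88 and 8.73 CPM in PA-1 and at 3.15 CPM against 8.24 and 14 CPM in TOV21G. The protease and its receptor were thus both above control in every comparison. The epithelial list had 23 genes, and 5 of the 11 tested members (45.5%) were higher and 0 lower. Of these, 2 were higher at an unadjusted edgeR p under 0.05, 0 passed the adjusted threshold and SPINT1 was called by DESeq2. SPINT1 had a PA-1 control under 2 CPM. In edgeR 0 members of the other 4 lists of this paragraph passed. At an unadjusted p under 0.05 were 5, 7, 4 and 6 higher members, and 0, 0, 0 and 2 lower ones. Of the senescence list, 1 member was at least 1.5-fold lower in all 4. DESeq2 called 1, 1, 2 and 3 members, FOSL1 and PLAUR among them, and did not call CSF1, DDX58, DUSP1 or PLAU.

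Lipid synthesis was the metabolic list with the clearest shared direction. Of 35 cholesterol and fatty acid genes, 17 (48.6%) were lower in all 4 and 1 higher, with medians between -0.25 and -0.42 in the 4 differences. SCD, the desaturase that makes monounsaturated fatty acids, was at 2873 CPM against 1388 and 1632 CPM in PA-1 and at 408 CPM against 280 and 149 CPM in TOV21G. FADS1, a desaturase of polyunsaturated fatty acids, was at 335 CPM against 214 and 239 CPM in PA-1 and at 113 CPM against 49.0 and 73.3 CPM in TOV21G. DHCR7, the last step of cholesterol synthesis, was at 83.4 CPM against 67.0 and 56.9 CPM in PA-1 and at 42.5 CPM against 31.4 and 32.6 CPM in TOV21G. In edgeR 0 members passed and 8 were lower at an unadjusted p under 0.05, and DESeq2 called 0. Glycolysis and hypoxia genes had no shared direction, with 4 of 33 higher and 5 lower in all 4. Nuclear oxidative phosphorylation genes had 12 of 48 (25%) lower and 3 higher, near the share of all genes. Its member ATP5F1C, a subunit of ATP synthase, was at 122 CPM against 73.8 and 80.8 CPM in PA-1 and at 224 CPM against 82.2 and 69.5 CPM in TOV21G. DESeq2 called ATP5F1C (DESeq2 adjusted p = 0.0136).

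Ferroptosis, a death by lipid peroxidation named in the title of the series, had few genes that moved together. Of 28 tested suppressors 6 (21.4%) were lower in all 4 and 0 were higher, near the 19.8% of all genes that were lower, and of 32 drivers 7 (21.9%) were lower and 3 higher. In edgeR 0 members passed, with 2 suppressors and 2 drivers lower and 1 driver higher at an unadjusted p under 0.05, and DESeq2 called SAT1. SLC7A11, the cystine importer that protects from ferroptosis, was at 365 CPM against 419 and 425 CPM in PA-1 and at 18 CPM against 34.6 and 14.3 CPM in TOV21G. It was higher in 3 of 4 comparisons, with a log2 fold change of 0.32 (SE 0.34, edgeR adjusted p = 0.779). GPX4, the peroxidase that removes lipid peroxides, was lower in all 4, at 121 CPM against 107 and 118 CPM in PA-1 and at 145 CPM against 97.5 and 112 CPM in TOV21G. Its log2 fold change was -0.29 (SE 0.17, edgeR adjusted p = 0.66). The driver ACSL4 was at 229 CPM against 190 and 227 CPM in PA-1 and at 160 CPM against 144 and 318 CPM in TOV21G. TFRC, the transferrin receptor, was at 245 CPM against 324 and 360 CPM in PA-1 and at 519 CPM against 305 and 486 CPM in TOV21G. FTH1, the ferritin heavy chain, was at 707 CPM against 616 and 755 CPM in PA-1 and at 6691 CPM against 3512 and 10530 CPM in TOV21G. The hairpins of a line thus disagreed for ACSL4 and FTH1, and the lines disagreed for TFRC. SAT1, which breaks down polyamines and is also a p53 target, was the higher driver with the largest smallest difference, at 35.5 CPM against 70.1 and 103 CPM in PA-1 and at 535 CPM against 1057 and 741 CPM in TOV21G.

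Of 77 cytosolic ribosomal protein genes, 38 (49.4%) were lower in all 4 and 0 higher, with medians between -0.09 and -0.23, and in the deposited TPM 17 were lower and 2 higher. Together they took 5.46%, 4.72% and 4.95% of the counts in PA-1 and 4.91%, 4.47% and 4.16% in TOV21G, in the order control, hairpin 1, hairpin 2. RPL10 was at 1138 CPM against 882 and 903 CPM in PA-1 and at 901 CPM against 677 and 526 CPM in TOV21G. NEAT1, the nuclear RNA that scaffolds paraspeckles, was at 120 CPM against 270 and 274 CPM in PA-1 and at 364 CPM against 1123 and 1058 CPM in TOV21G. The p53-induced host gene of miR-34a, MIR34AHG, was at 18 CPM against 30.7 and 35.4 CPM in PA-1 and at 17.3 CPM against 37.1 and 30.2 CPM in TOV21G. GAS5, a host gene of small nucleolar RNAs, was lower, at 85.6 CPM against 51.3 and 61.7 CPM in PA-1 and at 80.0 CPM against 31.2 and 57.9 CPM in TOV21G. Long noncoding RNAs made up 4.29% of the shared higher genes with a known type, 1.08% of the shared lower genes and 2.55% of all genes tested. Of the 14 nuclear noncoding RNAs listed and tested, 7 were higher in all 4 and 2 lower. Heat shock proteins had 8 of 18 members (44.4%) lower and 2 higher, and 5 lower in the TPM. HSPA8, a constitutive chaperone, was at 2072 CPM against 1616 and 1652 CPM in PA-1 and at 2322 CPM against 1833 and 1676 CPM in TOV21G. Proteasome genes had 9 of 31 members (29%) higher and 2 lower, with 16 higher in the TPM, 14 with total counts and no scaling factor, and 14 in the 3 differences left without PA-1 hairpin 1. In edgeR 0 genes of these lists passed. At an unadjusted p under 0.05 were 5 lower ribosomal protein genes, 4 higher and 1 lower nuclear RNA, 1 lower heat shock gene and 0 proteasome genes, and DESeq2 called NEAT1, MIR34AHG and MIR22HG.

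Shared higher genes had longer transcripts than shared lower genes, with medians of 3644 and 3086 bases against 3306 over all genes tested. The genes were put in 5 equal groups by transcript length. From the shortest to the longest group, the share higher in all 4 went from 9.84% to 15.9% and the share lower from 22.3% to 16.8%. In TOV21G the median difference of all genes went from -0.20 and -0.21 in the shortest group to 0.02 and 0.05 in the longest, while in PA-1 every group's median lay between -0.03 and 0.03. The part of transcript length in the lists of short genes, such as the ribosomal proteins, was not tested. The median level was alike, at 44.2 CPM for shared higher, 42.4 CPM for shared lower and 39.6 CPM for all genes. By chromosome the share of higher genes ran from 10.5% on chromosome 19 to 16.5% on X, and the share of lower genes from 14.9% on chromosome 5 to 23.7% on chromosome 16.

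**Figure D5:**
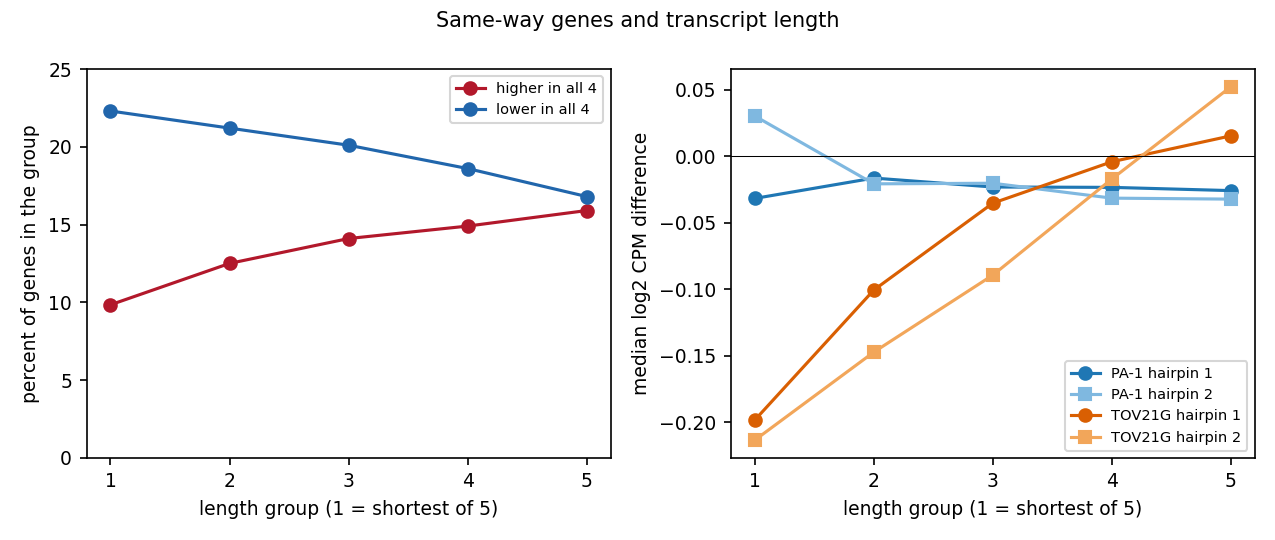
Left, percent of genes higher (red) or lower (blue) in all 4 differences in each of 5 equal groups by transcript length (1 is the shortest), from 9.84% to 15.9% for higher genes. Right, median log2 CPM difference of all genes in each group for the 4 hairpin libraries, where both TOV21G curves climb from near -0.2 to above 0 and the PA-1 curves stay near 0.

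The promoters of the shared genes were searched for the letters of known sites. RefSeq promoters (GRCh38.p14, from 250 bases before to 50 bases after each gene's start) were found for 1240 of the 1517 shared higher genes, 1863 of the 2233 shared lower genes and 9315 of all 11279. Each motif was counted on both strands. The AP-1 letters TGAGTCA were in 4.60% of the higher, 1.40% of the lower and 2.68% of all promoters. The E2F letters TTTCCCGC, TTTGGCGC, TTTGCCGC or TTTCGCGC were in 3.79%, 8.16% and 5.64%, and the CHR letters TTTGAA or TTCGAA, which occur in genes of mitosis, in 9.84%, 13.9% and 10.9%. The TEAD letters GGAATG were in 13.3%, 9.39% and 10.7%. A half-site of the p53 consensus, RRRCWWGYYY (R is A or G, W is A or T, Y is C or T), was in 6.61%, 4.99% and 5.10%. The full p53 element was not searched. CCAAT was in 35.2%, 40.4% and 37.6%, the CRE letters TGACGTCA in 4.11%, 3.76% and 3.51%, and TATAAA in 6.45%, 4.24% and 4.77%. For the 89 genes at least 1.5-fold higher a promoter was matched for 69, under 80%, so that count is void and not given. These are matches of letters, not sites shown to be bound.

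The windows below, of 100 bases each, show the AP-1 letters upstream of 3 higher genes and the E2F letters upstream of 3 lower genes. They were taken as those with the largest shared difference that passed a check against GENCODE. In that check the bases at the downstream end of the RefSeq promoter had to occur in at least 1 GENCODE transcript of the gene. The start itself was not checked. The AP-1 and E2F letters were picked because, of the motifs searched, they had the largest excess among the genes at least 1.5-fold in their direction. For the higher genes that choice rests on the count called void above. The windows are therefore examples, and the other motifs also differed in the shares given above. Capitals mark the motif, and positions count back from the base before the start. The windows of MEX3A and LOC101927345 also held a motif but did not meet that check and are not shown. The IL11 window is chr19:55370500-55370599 on the minus strand with the motif at -96 to -90, and the IL11 values are given above. The SRPX2 window is chrX:100644050-100644149 on the plus strand with the motif at -109 to -103. The MT2A window is chr16:56608440-56608539 on the plus strand with the motif, read on the other strand, at -104 to -98.
IL11: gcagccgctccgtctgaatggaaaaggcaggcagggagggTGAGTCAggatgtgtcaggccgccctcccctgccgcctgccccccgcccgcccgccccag
SRPX2: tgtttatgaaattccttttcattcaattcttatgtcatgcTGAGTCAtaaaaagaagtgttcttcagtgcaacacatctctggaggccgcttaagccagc
MT2A: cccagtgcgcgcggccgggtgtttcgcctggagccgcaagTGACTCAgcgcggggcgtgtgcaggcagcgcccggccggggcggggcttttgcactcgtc
SRPX2, a secreted protein that binds the urokinase receptor, was at 0.315 CPM against 2.12 and 8.17 CPM in PA-1 and at 1.44 CPM against 3.27 and 8.39 CPM in TOV21G. MT2A, a metal-binding metallothionein, was at 8.96 CPM against 17.8 and 21 CPM in PA-1 and at 58.3 CPM against 111 and 455 CPM in TOV21G.

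Among the lower genes, CDT1 carries its E2F letters close to the start, at -35 to -28 in chr16:88803689-88803788 on the plus strand. The CEP68 window is chr2:65056272-65056371 on the plus strand with the motif at -104 to -97. The MMAB window is chr12:109573608-109573707 on the minus strand with the motif at -163 to -156.
CDT1: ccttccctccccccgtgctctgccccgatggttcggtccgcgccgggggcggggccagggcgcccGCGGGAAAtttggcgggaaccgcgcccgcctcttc
CEP68: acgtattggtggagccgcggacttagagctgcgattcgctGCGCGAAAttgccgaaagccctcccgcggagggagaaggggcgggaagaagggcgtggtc
MMAB: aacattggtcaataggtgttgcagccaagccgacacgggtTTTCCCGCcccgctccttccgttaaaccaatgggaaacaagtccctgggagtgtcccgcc
CEP68, a centrosome linker protein, was at 78.6 CPM against 49.2 and 49.5 CPM in PA-1 and at 31.5 CPM against 17.4 and 17.2 CPM in TOV21G. MMAB, an enzyme of vitamin B12 metabolism, was at 28.9 CPM against 18.8 and 19.2 CPM in PA-1 and at 10.2 CPM against 4.71 and 4.39 CPM in TOV21G. Both genes gave nearly the same value with either hairpin in each line.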

How the data were processed

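The 6 libraries were poly(A)-selected RNA. Per the submitters' processing notes, reads were handled with cutadapt 1.12, STAR 2.5.3a, RSEM 1.2.31 and edgeR 3.26.8 on hg38; the strand setting of the counting is not given in the sources used here, so overlapping and antisense genes are less certain. The authors deposited, per the file headers, an expected count (RSEM's estimate per gene) and a TPM for each gene.

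Rounded expected counts went into edgeR 4.0.16 under R 4.3.3 (TMM scaling, quasi-likelihood F test, cell line as additive term, 3 residual degrees of freedom, Benjamini and Hochberg adjustment over the 11279 genes, threshold 0.05). Differences are between log2 CPM values, computed with prior count 2. The SE was approximated from the fold change and its F statistic. The biological coefficient of variation was 0.245. Intervals at 3 counts cover counting error only. No label says whether a line's libraries were separate cultures, and the p-values reflect no more than the spread among these libraries. That spread may be technical, and it includes any difference between the 2 hairpins and any difference in effect between the lines. DESeq2 1.42.0, limma 3.58.1, other scalings and filters, the deposited TPM, and leaving out each library were the alternatives. The fit was tested on simulated data.

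Named genes were MEX3A, the 15 per direction with the largest smallest-of-4 difference, up to 4 same-way members per gene list, 7 genes always given, and genes at the limits; 1 of the leading higher genes is not reported here. SRPX2, MT2A, CEP68 and MMAB were named with their promoter windows by the same ranking, and COL1A1 as a marker. Members and gene lists were chosen with earlier results of these data known. Gene positions come from RefSeq on hg38.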

Additional observations from a re-analysis of the deposited data

Results flagged for a closer look

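Between the lines, 3 gene lists had medians of opposite sign with both hairpins, and the difference was not tested for the lists. The annexin and caveola list had medians of 0.69 and 0.77 in PA-1 and of -0.07 and -0.07 in TOV21G, a difference of -0.80. The glycolysis and hypoxia list had medians of 0.21 and 0.33 in PA-1 and of -0.21 and -0.89 in TOV21G, a difference of -0.82. The list of CDK inhibitors, D cyclins and RB family genes, with 11 tested genes, had medians of -0.22 and -0.07 in PA-1 and of 0.25 and 0.53 in TOV21G, a difference of 0.54. TFRC was higher with both hairpins in PA-1 and lower with both in TOV21G, a fitted difference of -0.87 with an unadjusted edgeR p of 0.137. With at most 2 hairpin libraries per line, no group was large enough to look for a library that stands apart.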

How the results depend on the processing

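The count of genes called by edgeR stayed 0 in each direction with other scalings and filters, with 1 mean per line and hairpin target, without any single library (controls included), and with the hairpin number as a replicate block (lowest adjusted p 0.0807). DESeq2 called 74 higher and 14 lower. The hairpin numbers name shared reagents, and the hairpin 1 minus hairpin 2 differences of the lines correlated at 0.43. With that replicate block the FTH1 value turned to -0.059, and with limma voom to -0.10. Leaving out 1 library gave FTH1 values of -0.43 to 0.25, TFRC values of -0.40 to 0.48, ACSL4 values of -0.14 to 0.52 and SLC7A11 values of -0.010 to 0.51, so their shared direction was not set by these data.

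Counts moved with the filter. With filterByExpr 2291 genes were higher in all 4, and 287 higher and 91 lower genes passed 1.5-fold. With no filter these counts were 2541, 348 and 174. With at least 10 CPM in each line, 45 higher and 15 lower genes passed 1.5-fold. In the deposited TPM 1433 genes were lower in all 4 and 15 at least 1.5-fold lower. There DNA repair had 9 lower members, ribosomal proteins 17 and heat shock proteins 5, and the proteasome had 16 higher, against 14 with total counts and no scaling factor. Leaving out 1 hairpin library leaves 3 differences to share a sign, and the counts grew by that construction. The 1.5-fold counts were then 119 to 165 higher and 40 to 81 lower, DNA repair 15 to 27, the proteasome 10 to 14, and integrins and laminins 5 to 9. The counts were 148 higher and 81 lower without PA-1 hairpin 1, 68 lower without PA-1 hairpin 2, and 165 higher and 48 lower without TOV21G hairpin 1. Requiring 2 CPM in both controls, added after seeing the data, left 1404 higher genes and 60 at least 1.5-fold higher, and 2233 and 31 lower. The cause of the other moves was not tested. With 1 control per line and 14654628 to 19495162 counts per library, genes near the floor have poorly set sizes.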
